A study of Mus musculus with 2 samples.

Results

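A set of 48 mouse genes named for the receptors of glutamate and GABA was followed through the cell classes of dissociated midbrain tissue. The count matrices held 31053 genes. The whole set is called receptor genes here, although Grin1os codes for no receptor. Members were chosen by a rule on gene names. The rule took the AMPA (Gria), kainate (Grik), NMDA (Grin), delta (Grid) and metabotropic (Grm) glutamate receptor genes. It also took the GABA-A (Gabra, Gabrb, Gabrg, Gabrd, Gabre, Gabrp, Gabrq and Gabrr) and GABA-B (Gabbr) receptor genes, and Grin1os, an RNA from the strand opposite Grin1. The rule used no measured value, but the set was chosen with earlier results of these data known. In the cells kept, 30 of the 48 had at least 20 unique molecular identifiers (UMIs, each standing for 1 captured RNA molecule) over both libraries, 13 had between 1 and 19, and 5 had none (Gabra6, Gabre, Gabrp, Gabrr3 and Grm6).

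The data were 2 droplet libraries (10x Chromium) of C57BL/6 mice, 1 from control mice and 1 from mice given maneb and paraquat (MNPQ), a pesticide treatment used to model Parkinson's disease. MNPQ mice were injected from 10 weeks of age on 2 days in each of 3 weeks, first with 10 mg/kg of paraquat and later that day with 30 mg/kg of maneb. Control mice are labelled untreated, although the protocol describes saline injections, and the sex label reads pooled while the protocol and titles point to 3 males per group, whose cells cannot be told apart in the files. Tissue was punched from a 1 mm slice labelled substantia nigra pars compacta, digested with papain and filtered, so cells that survive dissociation poorly may be under-represented. With 1 library per group there was no replicate check, no test between the groups was possible, and every interval below is a 95% interval for counting error only.

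Glutamate opens the ionotropic AMPA, kainate and NMDA receptors, ion channels assembled from several subunits that carry fast excitation, and activates the metabotropic receptors, which signal through G proteins. GABA opens GABA-A receptors, chloride channels built commonly from alpha, beta and gamma subunits, and activates GABA-B receptors, which need Gabbr1 and Gabbr2 together. In the substantia nigra, dopamine neurons receive glutamate from the subthalamic nucleus and GABA from the striatum and the pars reticulata, and astrocytes carry receptors for both transmitters.

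Many GABA-A genes lie side by side in the genome, and the levels described below differ between such neighbours and between NMDA subunits. The 250 bases before the RefSeq start of 4 genes are shown because their cell class patterns carry these results: Gabrg1 and Gabra2, which lie in the same group of neighbours, and Grin2c and Grin1, 2 NMDA subunits found in different classes. All are from GRCm38.p6, read 5′ to 3′ on the minus strand, which is the strand of each of the 4 genes, and none overlaps an annotated exon. Capitals mark the GC box GGGCGG, searched on both strands.
Gabrg1 (chr5:70842618-70842867): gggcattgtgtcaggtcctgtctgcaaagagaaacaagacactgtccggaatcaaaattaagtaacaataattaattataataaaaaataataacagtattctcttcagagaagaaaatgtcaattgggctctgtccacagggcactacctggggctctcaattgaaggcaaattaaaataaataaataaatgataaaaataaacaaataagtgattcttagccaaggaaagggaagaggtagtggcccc
Gabra2 (chr5:71095850-71096099): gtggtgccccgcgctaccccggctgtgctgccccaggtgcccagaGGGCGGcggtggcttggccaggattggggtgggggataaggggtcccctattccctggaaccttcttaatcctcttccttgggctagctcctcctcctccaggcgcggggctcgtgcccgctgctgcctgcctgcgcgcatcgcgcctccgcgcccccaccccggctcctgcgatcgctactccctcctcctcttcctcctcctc
Grin2c (chr11:115267244-115267493): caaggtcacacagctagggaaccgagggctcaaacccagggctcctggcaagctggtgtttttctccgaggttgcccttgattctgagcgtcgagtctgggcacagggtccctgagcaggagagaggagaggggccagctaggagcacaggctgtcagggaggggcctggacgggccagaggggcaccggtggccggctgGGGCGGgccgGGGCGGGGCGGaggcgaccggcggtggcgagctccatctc
Grin1 (chr2:25319188-25319437): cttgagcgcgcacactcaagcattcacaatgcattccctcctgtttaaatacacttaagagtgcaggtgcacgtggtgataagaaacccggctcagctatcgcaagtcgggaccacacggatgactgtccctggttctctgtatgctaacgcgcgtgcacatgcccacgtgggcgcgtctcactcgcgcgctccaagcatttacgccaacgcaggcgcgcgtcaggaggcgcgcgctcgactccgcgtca
The Gabrg1 window was 35.6% G and C with 1 CpG, and no GC box was found in it. The Gabra2 window was 70.0% G and C with 18 CpGs and 1 GC box, and the Grin2c window was 68.8% G and C with 15 CpGs and 3 GC boxes, of which 2 overlap by a single base. The Grin1 window held 27 CpGs at 58.8% G and C and no GC box. Windows were at hand for 33 of the 48 genes. A GC box was present in 18 of their 40 windows (45.0%) and in 10756 of all 32851 windows of the same length (32.7%). The 40 windows had a median of 58.8% G and C and 8.5 CpGs, against 52.4% and 6 over all windows. The part of base content in the GC box shares was not tested. A match is a description of letters, not a binding site.

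The cell filter left 882 cells of the control library (2002640 UMIs, median 974 per cell) and 854 of the MNPQ library (1958634 UMIs, median 945.5), and the libraries had 1 kept barcode in common. Classes were named from marker genes and are written with the ending -like. They comprised 323 control and 303 MNPQ astrocyte-like cells, 165 and 128 microglia-like, 118 and 141 neuron-like, 74 and 68 endothelial-like, and 54 and 81 mature oligodendrocyte-like cells, beside smaller classes. The label of the tissue was not borne out by its defining neurons: Th, the enzyme that makes the dopamine precursor, was counted once, 1 UMI of the control library against 0 of the MNPQ library, and Slc6a3, the dopamine transporter, gave these same counts. The neuron-like cells therefore cannot be read as dopamine neurons. The libraries also differed in the kinds of cells within classes. Among neuron-like cells Slc17a7, a vesicular glutamate transporter of cortical-type excitatory neurons, had 58 control and 106 MNPQ UMIs, and among astrocyte-like cells Agt had 1053 and 364 and Itih3 923 and 168.

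Receptor RNA was concentrated in neuron-like cells. Summed over the 48 genes, they held 1100 receptor UMIs in the control library, a level of 7084 CPM (UMIs scaled to the total of the class; 6671 to 7515), and 1166 UMIs in the MNPQ library, 8378 CPM (7904 to 8873). The oligodendrocyte precursor-like cells followed with 3036 and 3107 CPM, although these rest on 17 and 8 cells. Astrocyte-like cells held 928 and 823 receptor UMIs, or 1750.5 CPM (1640 to 1867) and 1603 CPM (1495 to 1717). Mature oligodendrocyte-like cells were at 540.4 and 520.4 CPM, microglia-like cells at 166 and 179 CPM and endothelial-like cells at 99.0 and 116 CPM. The intervals of neuron-like, astrocyte-like, mature oligodendrocyte-like and microglia-like cells did not overlap in either library, and those of microglia-like and endothelial-like cells did.

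**Figure D1:**
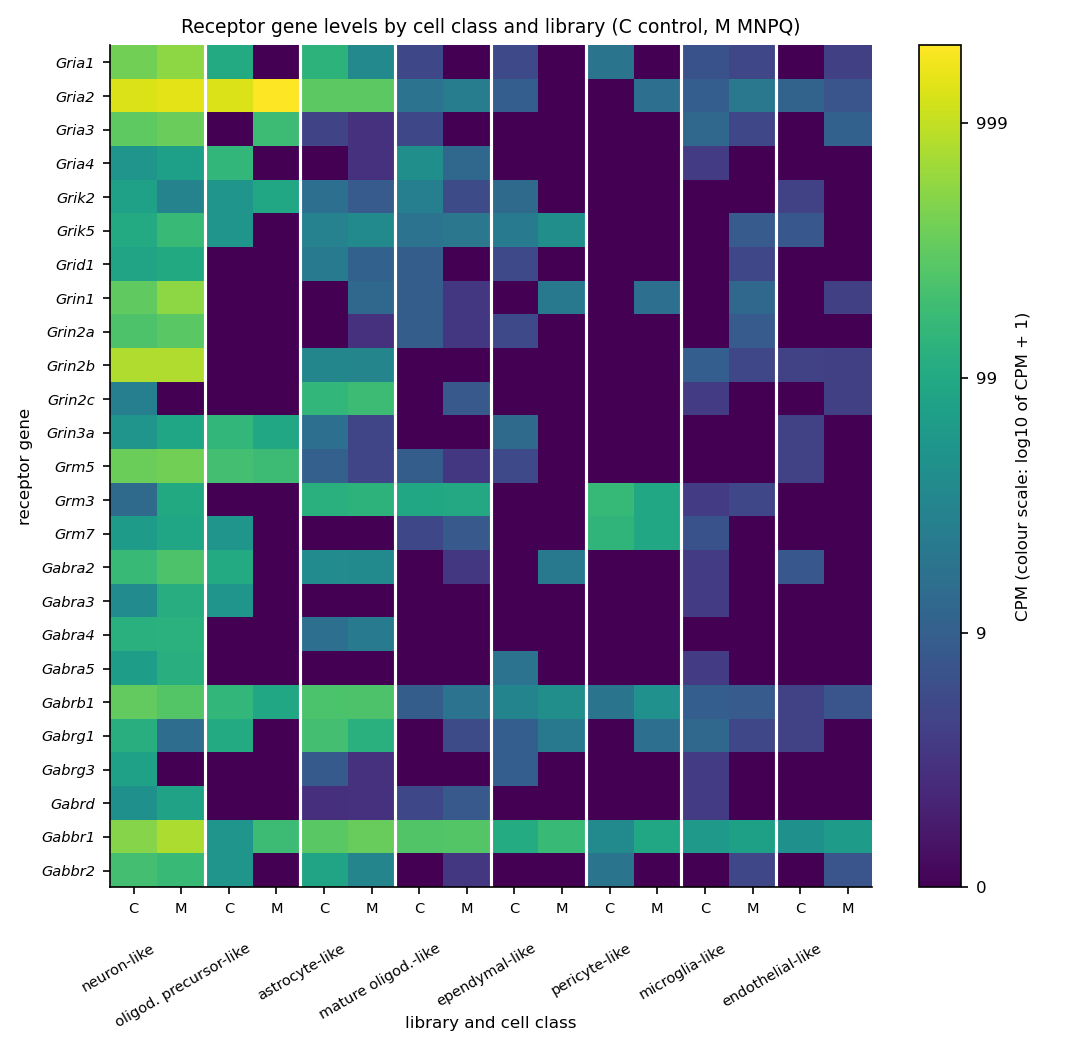
Level of receptor genes with at least 20 UMIs in the kept cells (rows) in 8 cell classes (column pairs, C control and M MNPQ), as CPM on a log colour scale. Neuron-like columns are filled for nearly every gene, astrocyte-like columns for a subset led by Gabbr1, Gria2, Gabrb1, Gabrg1 and Grin2c, and microglia-like and endothelial-like columns mainly for Gabbr1.

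The contrast between neuron-like and astrocyte-like cells could be read separately in each library. In the control library 17 of the 22 receptor genes with at least 20 UMIs over both classes were more than 2-fold higher in neuron-like cells, against 30% of all 5273 genes at that minimum, and 2 were more than 2-fold higher in astrocyte-like cells (21.7% of all genes). In the MNPQ library these counts were 15 of 19 (27.3% of all genes) and 2 of 19 (25.4%). Grin2c stood on the astrocyte side in both libraries, with Grm3 beside it in the control and Gabrg1 in the MNPQ library. Values of different genes below are UMIs from one end of each transcript, not divided by length, so their order is an order of captured molecules.

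Among the AMPA receptor genes, Gria2, whose edited subunit makes the channel impermeable to calcium, was the most counted in both classes. It had 206 UMIs in each library's neuron-like cells (1327 CPM control, 1480.2 CPM MNPQ) and 158 and 150 UMIs in astrocyte-like cells (298 and 292 CPM). The level was thus 4.45-fold higher in neuron-like cells in the control and 5.07-fold higher in the MNPQ library. Astrocyte-like clusters differed in it. The cluster led by Lhx2 (148 and 225 cells) held 7 and 11 Gria2 UMIs (56.5 and 59.2 CPM), beside 56.5 and 43.1 CPM of the neuron marker Snap25. A cluster with Agt and Itih3 among its top genes (81 and 19 cells) held 76 and 43 (357 and 511 CPM). Median depths were 680.5 and 680 UMIs in the former and 2055 and 3917 in the latter. Over all clusters led by Agt and Itih3, Gria2 was at 317 and 473 CPM, against 280 and 251 CPM in the other clusters. The log2 ratios between these groups were 0.18 (-0.29 to 0.65) in the control and 0.91 (0.38 to 1.43) in the MNPQ library. Astrocyte-like cells under 1000 UMIs held 15 and 10 Gria2 UMIs (120 and 75.2 CPM). The part of depth in these differences was not tested. In oligodendrocyte precursor-like cells Gria2 reached 26 UMIs (1338 CPM, 874 to 1960.5) and 22 UMIs (2010.2 CPM, 1260 to 3044), intervals that both include the neuron-like level. Gria1 had 62 and 76 UMIs in neuron-like cells (399 and 546 CPM) and 73 and 18 in astrocyte-like cells (138 and 35.1 CPM). Gria3 and Gria4 were nearly absent from astrocyte-like cells: Gria3 had 47 and 49 UMIs in neuron-like cells against 2 and 1 in astrocyte-like cells, and Gria4 had 8 and 10 against 0 and 1. Gria4 was instead found in mature oligodendrocyte-like cells, with 10 control and 5 MNPQ UMIs. Of the AMPA receptor UMIs in astrocyte-like cells, Gria2 made up 67.8% (61.4 to 73.8) in the control and 88.2% (82.4 to 92.7) in the MNPQ library, while in neuron-like cells it made up 63.8% and 60.4%.

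The NMDA receptor genes split by class. Grin1, the obligatory subunit that binds glycine, had 48 control and 77 MNPQ UMIs in neuron-like cells (309 and 553 CPM) and 0 and 6 UMIs in astrocyte-like cells. With a floor of 3 UMIs in place of the 0 counted, the control value was 54.6-fold higher in neuron-like cells. That ratio is not a lower bound. Grin2b, a glutamate-binding subunit prominent early in development and in the forebrain, had 125 and 113 UMIs in neuron-like cells (805 and 812 CPM) and 17 and 16 in astrocyte-like cells (32.1 and 31.2 CPM), a 25.1-fold and 26.1-fold difference. Grin2a, the subunit that joins mature synapses, had 37 and 40 UMIs in neuron-like cells and 0 and 1 in astrocyte-like cells. Grin2c showed the opposite pattern. It had 4 and 0 UMIs in neuron-like cells against 82 and 95 in astrocyte-like cells (155 CPM, 123 to 192, and 185 CPM, 149.7 to 226), and made up 82.8% and 84.8% of the Grin2 UMIs there. Grin3a, a subunit that lowers calcium entry, had 8 and 12 UMIs in neuron-like cells and 8 and 2 in astrocyte-like cells. Grin2d and Grin3b stayed at 5 or fewer UMIs over both libraries. Grin1os had 1 UMI in the cells kept. It overlaps Grin1 by 7706 bases on the other strand.

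Kainate and delta receptor genes were counted less often. Grik5, a kainate subunit that works only with partners, had 16 and 23 UMIs in neuron-like cells (103 and 165 CPM), 15 and 19 in astrocyte-like cells (28.3 and 37.0 CPM), 4 and 8 in mature oligodendrocyte-like cells and 5 and 2 in ependymal-like cells. Grik2, a pore-forming kainate subunit, had 12 and 4 UMIs in neuron-like cells, 8 and 4 in astrocyte-like cells and 6 and 2 in mature oligodendrocyte-like cells. Grid1, a delta receptor gene whose product links synapses through cerebellins, had 13 and 14 UMIs in neuron-like cells and 12 and 5 in astrocyte-like cells. Grik1, Grik3 and Grik4 had between 11 and 19 UMIs each over both libraries.

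Of the metabotropic glutamate receptors, Grm5, which couples to phospholipase C, was counted mainly in neuron-like cells, and Grm3, which lowers cyclic AMP, was spread over several classes. Grm5 had 56 UMIs in each library's neuron-like cells (361 and 402 CPM) and 5 and 2 in astrocyte-like cells. Grm3 had 66 and 70 UMIs in astrocyte-like cells (124.5 and 136 CPM), 22 and 40 in mature oligodendrocyte-like cells (93.6 and 97.7 CPM) and 9 and 6 in pericyte-like cells (161 and 90.6 CPM), against 2 and 14 in neuron-like cells (12.9 and 101 CPM). The log2 ratio of its neuron-like to its astrocyte-like level was -3.27 (-6.35 to -1.36) in the control and -0.44 (-1.38 to 0.40) under MNPQ. Both control UMIs of Grm3 in neuron-like cells came from a single cell. Grm7, a presynaptic group III receptor, had 10 and 12 UMIs in neuron-like cells, none in astrocyte-like cells, and 8 and 6 in pericyte-like cells (143 CPM, 61.9 to 282, and 90.6 CPM, 33.2 to 197). Grm2, Grm4 and Grm8 had between 4 and 12 UMIs each.

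The GABA-A subunit RNA of astrocyte-like cells came almost wholly from genes of 1 chromosomal neighbourhood. Gabrg1, Gabra2, Gabra4 and Gabrb1 lie within 1398 kb on chromosome 5 (chr5:70751047-72149037, GRCm38), and they supplied 261 of the 270 GABA-A UMIs in control astrocyte-like cells (96.7%, exact 93.8 to 98.5) and 216 of 222 in MNPQ astrocyte-like cells (97.3%, 94.2 to 99.0). In neuron-like cells the same genes made up 114 of 280 GABA-A UMIs in the control (40.7%, 34.9 to 46.7) and 89 of 287 in the MNPQ library (31.0%, 25.7 to 36.7). The chromosome X group of Gabre, Gabra3 and Gabrq had no UMI in astrocyte-like cells and supplied 4.64% and 5.57% in neuron-like cells. For the chromosome 5 genes the intervals of the classes did not overlap in either library.

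**Figure D2:**
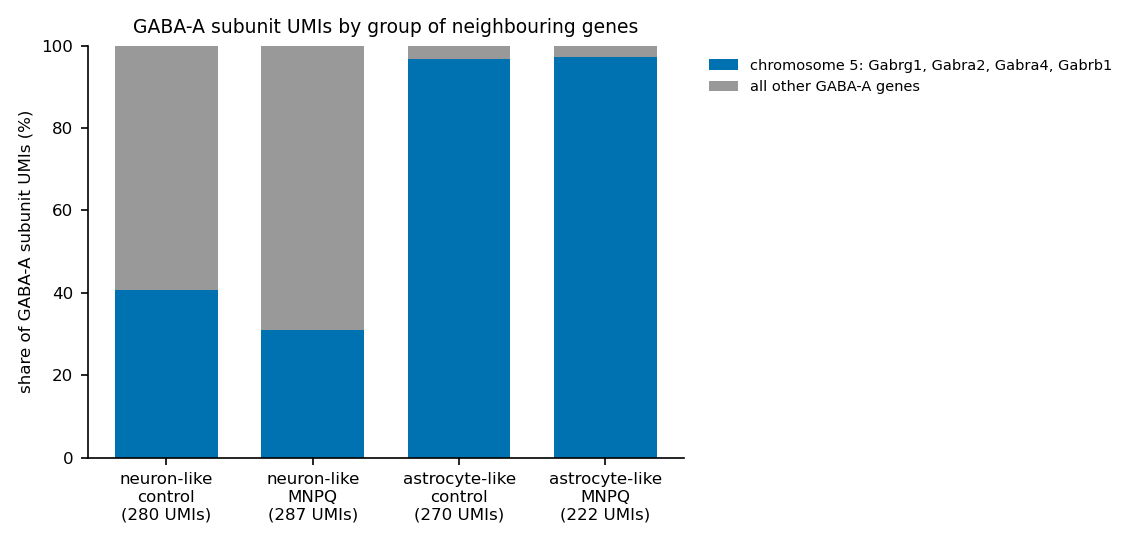
Share of GABA-A subunit UMIs (vertical axis, percent) that came from the chromosome 5 group of neighbouring genes and from all other GABA-A genes in neuron-like and astrocyte-like cells of each library (bars, with the UMIs summed below them). The chromosome 5 group fills 96.7% and 97.3% of the astrocyte-like bars and 40.7% and 31.0% of the neuron-like bars.

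Single genes followed this division. Gabrb1, a beta subunit, had 125 and 123 UMIs in astrocyte-like cells (236 and 239.6 CPM) and 50 and 36 in neuron-like cells (322 and 259 CPM), and it supplied 100% of 125 and 99.2% of 124 beta subunit UMIs in astrocyte-like cells. Gabrg1 had 108 and 63 UMIs in astrocyte-like cells (204 and 123 CPM) and made up 95.6% and 95.5% of the gamma subunit UMIs. Gabra2 had 27 and 33 UMIs in neuron-like cells and 20 and 19 in astrocyte-like cells, and Gabra4 had 19 and 18 in neuron-like cells and 8 and 11 in astrocyte-like cells. Gabra4 starts head to head with Gabrb1, and the annotated genes overlap by 196 bases on opposite strands, yet astrocyte-like cells held 125 and 123 Gabrb1 UMIs against the 8 and 11 of Gabra4. Gabra5, found mainly at extrasynaptic sites, had 11 and 17 UMIs in neuron-like cells, Gabra3 had 6 and 16, and Gabrd, a subunit of tonic receptors, had 7 and 11. None of Gabra3 and Gabra5 was counted in astrocyte-like cells, where the interval of a count of 0 reached 6.96 CPM in the control. In the MNPQ library it reached 7.19 CPM. Gabrd had 1 UMI there in each library. Gabrg3 had 12 and 0 UMIs in neuron-like cells and 4 and 1 in astrocyte-like cells.

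Gabbr1 was counted in every one of the larger classes, with 829 UMIs in the kept cells. It had 79 and 110 UMIs in neuron-like cells (509 and 790.4 CPM), 154 and 178 in astrocyte-like cells (290.5 and 347 CPM), 60 and 107 in mature oligodendrocyte-like cells (255 and 261 CPM), 25 and 8 in ependymal-like cells (108 and 167 CPM), 20 and 19 in microglia-like cells (58.2 and 75.5 CPM) and 13 and 20 in endothelial-like cells (44.4 and 64.4 CPM). In ependymal-like cells 1 cell held 32.0% of the control UMIs. Its partner Gabbr2 was counted only in part of these classes: 32 and 23 UMIs in neuron-like cells (206 and 165 CPM) and 45 and 16 in astrocyte-like cells (84.9 and 31.2 CPM), but 0 and 1 in mature oligodendrocyte-like cells, where Gabbr1 made up 60 of 60 and 107 of 108 GABA-B UMIs. The rho subunit gene Gabrr2 had 5 control and 1 MNPQ UMIs in ependymal-like cells and 1 and 5 in mature oligodendrocyte-like cells, and none in neuron-like cells.

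Shares of cells gave the same class pattern as the levels. In the control library Gria2 was detected in 60.2% of neuron-like, 22.3% of astrocyte-like and 1.21% of microglia-like cells, and in the MNPQ library in 61.0%, 19.8% and 3.91%. Median depths were 787.5, 821 and 1068 UMIs per cell in the control and 763, 769 and 941 in the MNPQ library. With every cell thinned to 500 UMIs the Gria2 shares were 44.9%, 8.36% and 0.606% in the control and 46.8%, 6.93% and 1.56% in the MNPQ library. Gabrg1 was detected in 24.1% and 15.5% of astrocyte-like cells against 2.42% and 0.781% of microglia-like cells, and after thinning in 9.29% and 3.96% against 0% and 0.781%. The microglia-like shares serve here as the background of free RNA, and the neuron-like and astrocyte-like shares named were above them in both libraries.

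Between the libraries, receptor genes in neuron-like cells leaned toward higher levels in the MNPQ library, by amounts that were mostly within counting error. Of the 23 receptor genes with at least 20 UMIs there, 19 had a higher and 4 a lower level in the MNPQ library, with a median log2 ratio of 0.27 against 0.04 over all 3159 genes at that minimum, of which 52.4% were higher. Snap25, a synaptic protein gene of neurons in general, was also higher in these cells, with 183 and 285 UMIs (1178 and 2048 CPM; log2 ratio 0.80, 0.52 to 1.07), and its part in the receptor ratios was not tested. Past 2-fold, 1 receptor gene was higher (Gabra3; 5.82% of all genes) and 1 was lower (Gabrg1; 6.49% of all genes). Gabra3 had 6 control and 16 MNPQ UMIs, a log2 ratio of 1.57 (0.15 to 3.21), and 1 cell held 33.3% of the control UMIs. Gabrg1 had 18 and 2 UMIs, a log2 ratio of -3.01 (-6.16 to -0.95), with 38.9% of the control and 50.0% of the MNPQ UMIs in 1 cell each. The interval also stayed above 0 for Grin1 (48 and 77 UMIs; 0.84, 0.30 to 1.39) and Gabbr1 (79 and 110; 0.64, 0.21 to 1.07). With every cell thinned to 500 UMIs the log2 ratios were 0.24 for Grin1, 0.09 for Gabbr1 and 0.16 for Gabra3, and under a stricter cell filter, which left 29 and 34 neuron-like cells, the median over receptor genes was -0.064.

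Most of the other receptor genes had an interval that included 0. Positive log2 ratios among them were 0.79 for Gabra5 (36.4% of its control UMIs in 1 cell), 0.74 for Grin3a (25.0% of its MNPQ UMIs in 1 cell), 0.68 for Grik5, 0.45 for Gria1 and Gabra2, 0.42 for Grm7, 0.27 for Grin2a, 0.26 for Grid1, 0.22 for Gria3, 0.16 for Gria2 and Grm5, 0.08 for Gabra4 (26.3% of its control UMIs in 1 cell) and 0.01 for Grin2b. Gabrb1 and Gabbr2 were each at -0.32. Below the minimum, Gabrg3 had 12 and 0 UMIs, Gabrq 7 and 0, and Grm3 2 and 14, which were named after their values were seen. Among the gamma subunits of neuron-like cells, Gabrg1 and Gabrg3 supplied 28.1% and 18.8% of 64 UMIs in the control library, and 2 and 0 of 46 UMIs in the MNPQ library.

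**Figure D3:**
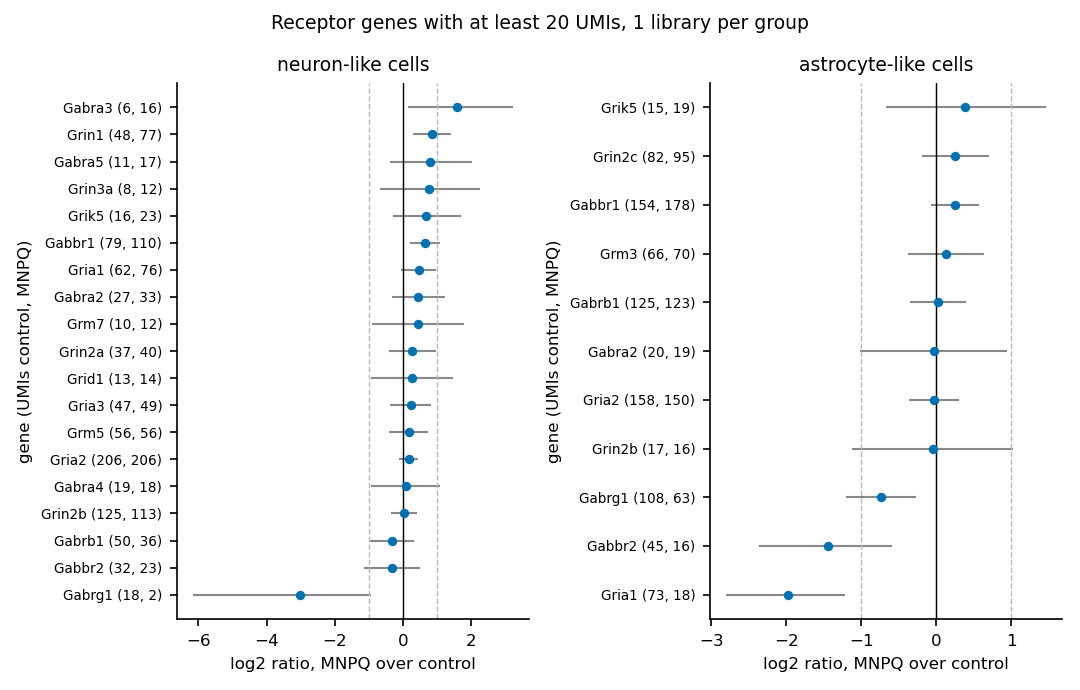
Log2 ratio of MNPQ over control (horizontal axis) for receptor genes with at least 20 UMIs over both libraries in neuron-like (left) and astrocyte-like cells (right), with the 95% counting interval as a bar, dashed lines at 2-fold and the UMIs of each library beside the name. In neuron-like cells the points lie right of 0 except those of Gabrb1, Gabbr2 and Gabrg1, and in astrocyte-like cells Gria1, Gabbr2 and Gabrg1 lie left of 0 with their whole interval.

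The neuron-like cells of the libraries were not of the same makeup, and receptor levels differed with that makeup. Of the 118 neuron-like cells of the control library 24 had a Slc17a7 UMI, and of the 141 of the MNPQ library 65 did, and the cluster led by Sst, Scg2 and Peg3 held 38 control and 9 MNPQ cells. In cells without a Slc17a7 UMI, Grin1 was at 328 and 403 CPM (33 control and 32 MNPQ UMIs; log2 ratio 0.30, -0.45 to 1.04) and Gabbr1 at 547 and 605 CPM (55 and 48 UMIs; 0.14, -0.44 to 0.73). In cells with a Slc17a7 UMI, Grin1 was at 274 and 753 CPM (15 and 45 UMIs; log2 ratio 1.46, 0.59 to 2.41) and Gabbr1 at 439 and 1037 CPM (24 and 62 UMIs; 1.24, 0.54 to 1.99). Gria1 was at 366 and 686 CPM in them (20 and 41 UMIs; 0.91, 0.10 to 1.76) and at 418 and 441 CPM in the others (0.08, -0.61 to 0.76). For these 3 genes the interval lay above 0 in the cells with a Slc17a7 UMI and included 0 in the others, and the difference between the ratios was not tested. The sum over all 48 genes was 7458 and 10589.5 CPM in those cells (log2 ratio 0.51, 0.32 to 0.69) and 6880.0 and 6713 CPM in the others (-0.04, -0.20 to 0.13). The cells with a Slc17a7 UMI also differed in depth. The 24 control cells had a median of 1482.5 UMIs and the 65 MNPQ cells one of 755. Of these, 10 control and 11 MNPQ cells lay in the cluster that had Miat and Meg3 among its top genes. Over all cells of that cluster the log2 ratio was 0.23 (-0.89 to 1.28) for Gabbr1 and 0.71 (-0.43 to 1.81) for Grin1. In the cluster led by Pmch and Chgb these ratios were 0.31 (-0.54 to 1.24) and 1.93 (0.25 to 4.28). In that led by Cacng2 and Nptx1 they were 0.08 (-1.51 to 2.09) and 2.08 (-0.57 to 7.46). The Grin1 ratios of these clusters rest on few control UMIs. Grin1 had 3 control and 32 MNPQ UMIs in the cluster led by Pmch and Chgb (17 and 45 cells). In that led by Cacng2 and Nptx1 (7 and 21 cells) Grin1 had 1 and 19 UMIs, and Gabbr1 had 4 and 19. The parts of depth and cluster in these differences were not tested.

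Gabrg1 and Gabrg3 were found in the other neuron-like cells of the control library. All 18 control UMIs of Gabrg1 and all 12 of Gabrg3 came from cells without a Slc17a7 UMI, where Gabrg1 stood at 179 CPM, against 12.6 CPM (1 UMI) for MNPQ. Gabrb1 (39 and 15 UMIs; -1.04, -2.00 to -0.15) was also lower in the MNPQ cells without a Slc17a7 UMI. Within a library, Gabra5 was higher in the cells with a Slc17a7 UMI than in those without, 4.90-fold in the control (8 and 3 UMIs; log2 ratio 2.29, 0.23 to 4.84) and 4.32-fold in the MNPQ library (13 and 4 UMIs; 2.11, 0.42 to 4.18). The same ratio for Gabra3 was 5.76 under MNPQ, on 13 and 3 UMIs, and 1.84 in the control, on 3 and 3 UMIs. Control ratios were 3.15 for Gabra4, 2.41 for Grin2a and 1.99 for Grin2b with intervals above 1, against MNPQ ratios of 1.33, 1.62 and 0.981 with intervals that included 1. Library and makeup cannot be told apart where a class holds different kinds of neurons in the 2 libraries.

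**Figure D4:**
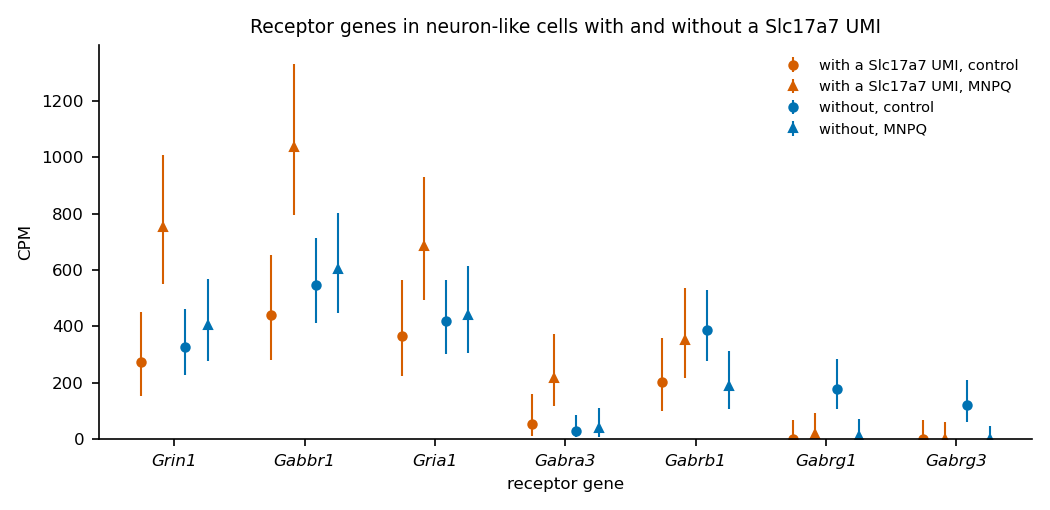
Level (vertical axis, CPM with 95% counting interval) of 7 receptor genes in neuron-like cells with a Slc17a7 UMI (orange) and without one (blue), in the control (circles) and MNPQ library (triangles). For Grin1, Gabbr1 and Gria1 the orange triangle lies above the orange circle while the intervals of the blue points overlap, and Gabrg1 and Gabrg3 are found in the blue control points.

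In astrocyte-like cells the receptor genes as a group did not lean either way, and 3 of them were lower in the MNPQ library. Over the 12 genes with at least 20 UMIs the median log2 ratio was -0.0022, against 0.046 over all 5840 genes, with 6 genes higher and 6 lower. Past 2-fold, 2 were lower (6.56% of all genes) and 0 higher (4.97% of all genes). Gria1 had 73 control and 18 MNPQ UMIs, a log2 ratio of -1.97 (-2.81 to -1.21), and was detected in 15.8% and 5.61% of the cells against 1.21% and 0.781% of microglia-like cells. Thinned to 500 UMIs per cell, these shares were 4.02% and 1.65% against 0.606% and 0.781%. Gabbr2 had 45 and 16 UMIs (-1.45, -2.37 to -0.59), with a ratio of -0.39 after thinning, and Gabrg1, though within 2-fold, had 108 and 63 UMIs (-0.73, -1.20 to -0.27). The remaining 9 had intervals that included 0, with log2 ratios such as 0.39 for Grik5, 0.26 for Grin2c and Gabbr1, 0.13 for Grm3, 0.02 for Gabrb1, -0.03 for Gria2 and Gabra2 and -0.04 for Grin2b. For Gria2, with 158 and 150 UMIs, the interval ran from -0.36 to 0.30, and for Gabrb1 from -0.35 to 0.39.

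The cluster makeup of the astrocyte-like cells differed as well, and Gria1 followed it. Clusters led by Agt and Itih3 held 148 control and 34 MNPQ cells, and the other clusters, of which the larger was led by Lhx2, 175 and 269. In the control library Gria1 was at 237 CPM in the Agt- and Itih3-led clusters (62 UMIs) and 41.0 CPM in the others (11 UMIs), a 5.77-fold difference, and in the MNPQ library at 105 CPM (10 UMIs) and 19.1 CPM (8 UMIs), a 5.49-fold difference. Both libraries thus gave the same order. Gabbr2 was 3.16-fold higher in the Agt- and Itih3-led clusters in the control (34 and 11 UMIs) and 2.00-fold in the MNPQ library (5 and 11 UMIs). Grm3 went the other way, 1.95-fold and 2.05-fold higher in the other clusters, with 44 against 22 control UMIs and 63 against 7 MNPQ UMIs. The receptor genes were left out of the genes used for clustering.

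Within the cluster groups the Gria1 difference between libraries was smaller than over the class. In the Agt- and Itih3-led clusters its log2 ratio was -1.17 (62 and 10 UMIs; -2.30 to -0.20), and in the other clusters -1.10 (11 and 8 UMIs; -2.62 to 0.35). With both cluster groups weighted equally in each library it was -1.16. The Agt- and Itih3-led clusters were themselves not alike in the libraries: Itih3 had 869 control and 101 MNPQ UMIs in them (3317 and 1061 CPM; -1.64, -1.96 to -1.35) and Agt 937 and 265 (-0.36, -0.56 to -0.16), and the part of this in the receptor values was not tested. Gabbr2 was at -1.30 (34 and 5 UMIs; -3.02 to 0.06) and -0.64 (11 and 11 UMIs; -1.99 to 0.71). Gabrg1 was at -0.26 (56 and 17 UMIs; -1.14 to 0.55) and -0.82 (52 and 46 UMIs; -1.42 to -0.22), ratios whose intervals overlap and whose difference was not tested. Gria2 was higher in the MNPQ library within the Agt- and Itih3-led clusters, with 83 and 45 UMIs and a log2 ratio of 0.58 (0.02 to 1.12). In the others it was not (-0.16, -0.60 to 0.29), and the difference between these ratios was not tested. In the deeper of the Agt- and Itih3-led clusters alone, Gria2 had 76 and 43 UMIs and a ratio of 0.52. That interval included 0 (-0.06 to 1.07).

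**Figure D5:**
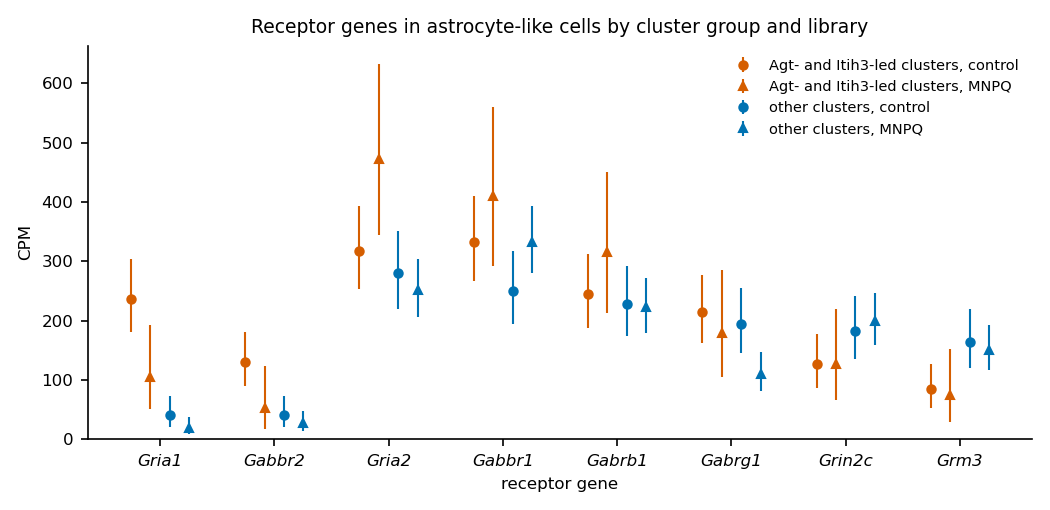
Level (vertical axis, CPM with 95% counting interval) of 8 receptor genes in astrocyte-like cells of the clusters led by Agt and Itih3 (orange) and of the other clusters (blue), in the control (circles) and MNPQ library (triangles). Gria1 is higher in orange in both libraries (237 against 41.0 CPM in the control), Gabbr2 likewise with overlapping MNPQ intervals, and Grm3 is higher in blue.

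In the remaining classes few receptor genes reached 20 UMIs, and those that did had similar levels in both libraries. In mature oligodendrocyte-like cells the log2 ratio was 0.03 for Gabbr1 (60 and 107 UMIs; -0.44 to 0.51) and 0.06 for Grm3 (22 and 40; -0.72 to 0.88), with 0 of 2 more than 2-fold higher (4.39% of 4376 genes) or lower (3.54%, together 7.93%). Gabbr1, the only receptor gene with enough UMIs in microglia-like and endothelial-like cells, had log2 ratios of 0.38 (-0.61 to 1.36) and 0.54 (-0.54 to 1.67), within 2-fold in both. In microglia-like cells 2.17% of all genes were past 2-fold higher and 5.57% lower (7.74% in either direction), and in endothelial-like cells 2.64% and 4.91% (7.56%). Over all kept cells 0 of 30 receptor genes were more than 2-fold higher (2.45% of 12067 genes) and 3 lower (7.3%, 9.75% in either direction), among them Gabrg3 with 19 and 1 UMIs and Grik2 with 31 and 11 (-1.46, -2.60 to -0.43). The single Gabrg3 UMI of the MNPQ library gave a log2 ratio of -4.22 (-9.59 to -1.56). These pooled values mix classes whose shares differ between the libraries.

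Of 46 genes for auxiliary subunits, scaffolds and trans-synaptic partners of these receptors, 22 reached 20 UMIs in neuron-like cells. There 3 were more than 2-fold higher in the MNPQ library and 0 lower, beside the 5.82% and 6.49% of all genes. The higher ones were Homer1, a scaffold that ties group I metabotropic receptors to the postsynaptic density (9 and 31 UMIs; 1.94, 0.84 to 3.20), Gripap1 (10 and 21; 1.23, 0.08 to 2.48) and Nlgn2, an adhesion protein of inhibitory synapses (13 and 26; 1.16, 0.15 to 2.24). The lowest ratio was that of Gabarapl2, a relative of the GABA-A receptor-associated protein (71 and 36 UMIs; -0.82, -1.44 to -0.22). By role, 0 of 4 AMPA auxiliary genes, 2 of 8 excitatory scaffold genes, 1 of 8 inhibitory scaffold genes and 0 of 2 delta receptor partners were past 2-fold. In astrocyte-like cells, where 4.97% of all genes were more than 2-fold higher and 6.56% lower, 15 reached the minimum, of which 2 were more than 2-fold higher, Homer3 (6 and 18 UMIs; 1.63, 0.24 to 3.25) and Pick1, which binds Gria2 (10 and 21; 1.12, -0.03 to 2.37), and 1 was lower, Shisa9, an AMPA receptor auxiliary gene (38 and 17 UMIs; -1.11, -2.03 to -0.25). Gabarap had 201 and 267 UMIs there (0.46, 0.19 to 0.73).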

How the data were processed

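The values deposited are UMI counts for each gene in each cell barcode. Cell Ranger 3.0.2 produced them, per the file headers, and the genome was mm10, per the submitters' processing notes. How barcodes were called and whether strand or introns were counted is not given in the sources used here. Gene positions came from GENCODE M21, which held all 48 receptor genes and 30934 of the 31053 identifiers, and promoter windows from RefSeq on GRCm38.p6.

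A barcode was kept when it had 200 genes or more and no more than 20% of its UMIs from mitochondrial genes. Both libraries were clustered together in scanpy 1.11.5 (2000 variable genes without the receptor genes, 30 components, 15 neighbours, Leiden resolution 1), clusters that mixed classes and held 40 cells or more were split once again with 8 neighbours, and clusters were named from 18 marker lists when at least 3 markers were raised. Of the 35 clusters, 4 stayed unnamed. Doublets called by Scrublet (2 control and 6 MNPQ cells) were kept.

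CPM is the sum of a gene's UMIs in a class of 1 library over all UMIs of that class and library. Levels have exact Poisson, shares exact Clopper-Pearson and log2 ratios exact conditional binomial 95% intervals. Only the log2 ratio intervals were run on simulated data. Those counts were drawn under the Poisson model that the interval assumes, so the run cannot show how UMIs gathered in single cells affect it. All these intervals cover counting error only. A gene entered a ratio with at least 20 UMIs over both groups compared, and past 2-fold means a ratio of CPM of at least 2. No pseudocount was added. With 1 library per group no test was made. Receptor genes at that minimum were named in classes of at least 30 cells per library, and results of some genes are not reported here. The receptor genes, marker and partner lists were chosen with earlier results of these data known, and the splits by Slc17a7 and by Agt and Itih3 after seeing them. The alternatives tried were other cell filters, clusterings, scalings, minimums and folds.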

Additional observations from a re-analysis of the deposited data

Results flagged for a closer look

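The cell filter removed 223 control and 111 MNPQ barcodes, which enter no comparison above. Their receptor RNA level was above that of all kept cells together and below that of kept neuron-like cells. They carried 639 control receptor UMIs (3084 CPM) and 383 of MNPQ (3707 CPM), a log2 ratio of 0.27 (0.08 to 0.45). The kept cells of all classes together were at 1215 and 1228 CPM, and the kept neuron-like cells at 7084 and 8378 CPM. Clustering without the cell filter named 214 control and 188 MNPQ cells neuron-like, against 118 and 141 with it. For astrocyte-like cells these numbers were 342 and 315 against 323 and 303. The part of cell makeup in the level of the removed barcodes was not tested. Among the genes with at least 20 UMIs in the removed barcodes, Gria2 (106 and 79 UMIs) was at 512 and 765 CPM (0.58, 0.14 to 1.01), and Gabbr1 (33 and 32 UMIs) was at 159 and 309.8 CPM (0.96, 0.21 to 1.71). Gabrb1 was lower there (54 and 14 UMIs; -0.94, -1.91 to -0.08). The summed level, Gria2 and Gabbr1 are listed because these barcodes belong to no comparison and were above the control library there.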

How the results depend on the processing

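No paired analysis was possible because each group had 1 library. Depth limits single genes: 18 of the 48 had under 20 UMIs, and the median neuron-like cell had 787.5 or 763 UMIs. Of 500 ratios of single genes recomputed over 17 settings, 467 stayed within the main counting interval, and 33 left it. The causes of the shifts below were not tested. Equal weights for the neuron-like cells with and without a Slc17a7 UMI gave a median of 0.33, and equal weights for the astrocyte-like cluster groups 0.06; these settings, and leaving out each gene's top cell, were chosen after seeing the data.

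The summed neuron-like level (7084 CPM control, 8378 MNPQ) was 6416 and 7530.3 without a cell filter, 4721 and 4551 under a stricter filter (500 genes or more, no more than 10% mitochondrial UMIs; 29 and 34 neuron-like cells), 6155 and 7322 at Leiden resolution 0.5, 6155 and 7259 at 2.0, 6047 and 7195 with receptor genes among the variable genes, 6149.9 and 7144.5 with classes from marker scores per cell, and 8105 and 9795 without mitochondrial, ribosomal, hemoglobin and 2 artefact-prone genes in the scaling; thinned to 500 UMIs the control was 7729. The astrocyte-like level (1750.5 and 1603) was 2000.0 and 1823 under that scaling, 1519 and 1391 with cells weighted equally and 1362 and 1406 thinned to 500 UMIs; the MNPQ value was 1728 under the stricter filter and 1752 for cells thinned to 1000 UMIs.

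The neuron-like median ratio (0.27) was -0.064 under the stricter filter, so its direction was lost there. It was 0.68 in the 36 control and 46 MNPQ cells thinned to 1000 UMIs, and 0.10 with every cell thinned to 500. The astrocyte-like median (-0.0022) was -0.30 with cells weighted equally and 0.17 thinned to 500. Thinned to 500, the ratios in neuron-like cells were 0.24 for Grin1, 0.09 for Gabbr1 and 0.16 for Gabra3. Those in astrocyte-like cells were -1.29 for Gria1 and -0.39 for Gabbr2. Gabbr1 was then at -1.58 (main value 0.03) in mature oligodendrocyte-like cells and at -1.20 (main value 0.54) in endothelial-like cells. Median depths there were 4648 and 4951, and 2767 and 3396 UMIs, so thinning removed most UMIs of these classes. The thinned ratios are given without an interval and are not read as a change of direction.

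Receptor genes more than 2-fold higher in MNPQ neuron-like cells (1) numbered 3 without a filter, 2 with marker scores, 3 thinned to 1000, 0 thinned to 500, 3 at 10 UMIs, 0 at 60 UMIs and 7 at 1.5-fold; those lower (1) numbered 2, 0, 0, 0, 4, 0 and 2 in the same order. In astrocyte-like cells those lower (2) numbered 1 with cells weighted equally, 1 thinned to 500 and 4 at 10 UMIs. Over all cells those higher (0) numbered 2 under the stricter filter, 4 with cells weighted equally, 3 thinned to 1000, 2 thinned to 500, 1 at 10 UMIs and 3 at 1.5-fold, and those lower (3) numbered 1 thinned to 500, 6 at 10 UMIs, 0 at 60 UMIs and 5 at 1.5-fold. Genes past 2-fold in neuron-like over astrocyte-like cells (17 control, 15 MNPQ) numbered 6 and 5 under the stricter filter, 4 and 7 thinned to 1000, and 5 and 6 at 60 UMIs; the control count was 9 thinned to 500 and the MNPQ count 25 at 10 UMIs. Those past 2-fold in astrocyte-like cells (2 and 2) numbered 4 and 4, 1 and 1 thinned to 1000, and 0 and 1 thinned to 500.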
